A study of Mus musculus with 27 samples.

Results

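SAHA and TSA are inhibitors of zinc-dependent histone deacetylases, without each member being a known target at the doses used. Transcripts of this family were followed here as 10 genes, Hdac1 to Hdac10, taken by name from the series-wide count table. They were 10 of 55367 gene rows. By class, Hdac1, Hdac2, Hdac3 and Hdac8 form class I, Hdac4, Hdac5, Hdac7 and Hdac9 class IIa, and Hdac6 and Hdac10 class IIb. Counts of polyadenylated RNA were available for 27 libraries in 9 groups of 3, each library made from a pool of 15 to 20 mouse embryos of Wildtype genotype that were kept in KSOM medium and collected as morulae at E2.75. Embryos of the inhibitor family were exposed from E2.5 to Vehicle, to the deacetylase inhibitors SAHA (500 nM) or TSA (50 nM), or to A485 (10 uM), an inhibitor of the acetyltransferases p300 and CBP. In the siRNA family, zygotes were injected in the cytoplasm at E0.5 with siControl, siP300, siKat6a, siKat6b or siComb. P300 (gene Ep300), Kat6a and Kat6b are acetyltransferases, and the labels do not say what siComb holds. The pools of a group are called biological replicates without a statement of separate collection, so each p-value covers the spread among these libraries alone, and that spread may be technical.

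Histone deacetylases remove acetyl groups that acetyltransferases place on lysines of histones and other proteins, and acetylated histones mark active chromatin. Class I enzymes are largely nuclear: Hdac1 and Hdac2 are close paralogs at the core of the Sin3, NuRD and CoREST complexes, Hdac3 works with the corepressor Ncor1, and Hdac8 acts outside these complexes on substrates such as the cohesin subunit Smc3. Class IIa enzymes have weak catalytic activity of their own, bind Mef2 factors, and leave the nucleus with 14-3-3 proteins when kinases phosphorylate them. Hdac6 is a cytoplasmic deacetylase of tubulin, and Hdac10 acts on polyamines. In early mouse embryos, Hdac1 is known as a main class I deacetylase of the cleavage stages.

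On GRCm38, in the GENCODE vM21 annotation, the class I genes lie at chr4:129516104-129542713 (Hdac1, minus strand), chr10:36974544-37001889 (Hdac2, plus), chr18:37935844-37955016 (Hdac3, minus) and chrX:102284639-102505359 (Hdac8, minus). The class IIa genes, all on the minus strand, lie at chr1:91928779-92195699 (Hdac4), chr11:102194432-102230166 (Hdac5), chr15:97792664-97844502 (Hdac7) and chr12:34047580-34917095 (Hdac9). The class IIb genes lie at chrX:7930120-7947889 (Hdac6) and chr15:89123307-89128700 (Hdac10), both on the minus strand. Hdac9 is the longest of them, with 869516 bases from start to end, and Hdac10 the shortest, with 5394.

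Library totals ran from 7633990 to 11991314 counts. Mitochondrially encoded genes took 0.997 to 1.2% of counts in Vehicle, 1.61 to 2.15% in SAHA, 2.36 to 2.62% in A485 and 2.48 to 3.53% in TSA. The share was 1.94 to 2.45% in siControl, 4.93 to 6.99% in siP300, 4.86 to 5.41% in siComb, and between 1.78 and 2.42% in siKat6a and siKat6b. Of 10 morula-stage embryo markers, 8 to 9 had counts in each library. Sox2 was listed at 0 in all 27 libraries. The retroviral row MERVL-int set some libraries apart from their own group: Vehicle 3, siP300 2, siKat6b 1 and 3, and siComb 2. Among the siRNA targets, Kat6a was lower in siKat6a (12.1 ± 1.59 CPM) than in siControl (16.7 ± 1.28), and Kat6b was lower in siKat6b (73.7 ± 6.14) than in siControl (108 ± 7.0), with no overlap of libraries. Ep300 stood at 18.4 ± 8.46 CPM in siP300 and 25.0 ± 3.29 in siControl, and these ranges overlapped. Kat6b was also below siControl in every siP300 library (76.5 ± 25.8 CPM), the highest at 100.1 against 100.6 in the lowest siControl library. In siComb, Kat6a (10.8 ± 1.31 CPM) and Kat6b (53.3 ± 24.1 CPM) lay below siControl in every library, while Ep300 (22.6 ± 7.70 CPM) overlapped it. Each of these values is a mean ± SD with n = 3.

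The upstream sequences of Hdac9 and Hdac4 are shown because Hdac9 held the highest and Hdac4 the lowest log2 fold changes of the family under the deacetylase inhibitors. RefSeq promoter entries (GRCm38.p6) were found for 7 of the 10 members. Each run below is the 250 bases before an annotated start, 5′ to 3′ on the minus strand, and capitals mark GGGCGG (the GC box) or CCAAT read on either strand.
Hdac9, chr12:34917096-34917345: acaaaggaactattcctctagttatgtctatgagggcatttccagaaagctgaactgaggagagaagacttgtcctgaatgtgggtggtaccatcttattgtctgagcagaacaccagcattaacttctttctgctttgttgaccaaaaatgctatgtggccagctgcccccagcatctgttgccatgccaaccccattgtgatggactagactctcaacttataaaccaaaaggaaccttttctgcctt
Hdac9, second start, chr12:34528890-34529139: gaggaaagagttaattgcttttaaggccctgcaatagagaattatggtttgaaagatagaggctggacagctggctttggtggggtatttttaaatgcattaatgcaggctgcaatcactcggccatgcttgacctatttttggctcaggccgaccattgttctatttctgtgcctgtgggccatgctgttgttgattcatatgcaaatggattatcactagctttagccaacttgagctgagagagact
Hdac4, chr1:92180342-92180591: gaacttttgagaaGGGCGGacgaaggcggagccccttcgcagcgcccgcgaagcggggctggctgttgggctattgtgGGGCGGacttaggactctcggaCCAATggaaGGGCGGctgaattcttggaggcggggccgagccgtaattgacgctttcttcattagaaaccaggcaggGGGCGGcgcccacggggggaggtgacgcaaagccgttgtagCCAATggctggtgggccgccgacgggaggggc
The first Hdac9 window lies just before the gene span given above. The second Hdac9 window and the Hdac4 window lie inside the spans of their genes, before internal starts. Both Hdac9 windows are poor in CpG dinucleotides (0 and 2, with 44.4% and 43.6% G and C bases) and hold no capitals. The Hdac4 window holds 23 CpG dinucleotides, 65.2% G and C bases, 4 GC boxes and 2 CCAAT boxes. The Hdac6 window, not printed, likewise holds 4 GC boxes and 2 CCAAT boxes. Over all 32851 promoter windows of the same length, read on both strands, GGGCGG occurs in 32.7% and CCAAT in 33.8%. The MEF2 motif, present in 2.92% of all windows, was not found in these 3. A match or its absence describes these letters only.

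Levels below are counts per 1000000, scaled by TMM over all 27 libraries (CPM), given as mean ± SD over the n = 3 libraries of a group or library by library in the order of their numbers. The words "rose" and "fell" stand for an adjusted p below 0.05 (Benjamini-Hochberg over all genes tested) in edgeR's quasi-likelihood test. Log2 fold changes from it carry an SE derived from its F statistic, as the absolute fold change divided by the square root of F. In these bulk pools, fewer cells of a type and less RNA per cell cannot be told apart. Inhibitor groups share the Vehicle libraries and siRNA groups share the siControl libraries, so the comparisons within a family are not independent of each other.

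With SAHA, 5 members rose (Hdac1, Hdac2, Hdac8, Hdac9 and Hdac6) and Hdac4 fell, 6 of the 9 tested, where 34.2% of all 18299 genes tested changed (20.2% higher and 14% lower). With TSA the same 5 rose while Hdac3 and Hdac4 fell, 7 of 9, against 58.2% of all genes (31.6% higher and 26.6% lower). With A485, Hdac3, Hdac8 and Hdac6 rose and Hdac4 fell. These 4 of 9 lie near the 45.5% of all genes called in that comparison (21.4% higher and 24.2% lower). The family's median log2 fold change was 0.83 with SAHA (0.06 over all genes), 0.92 with TSA (0.08) and 0.76 with A485 (-0.06). Hdac7 did not pass the filter on low counts in this family and was not tested. Of the 9 members tested, library ranges were apart from Vehicle for 8 with SAHA (54.7% of all genes tested), 8 with TSA (68.6%) and 4 with A485 (52.7%).

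After siP300, Hdac1, Hdac9 and Hdac6 rose and Hdac2 fell, 4 of 10 members, near the 35.4% of all 19182 genes called (19.7% higher and 15.7% lower). After siComb, Hdac1, Hdac3, Hdac9 and Hdac6 rose and Hdac2 fell, 5 of 10, against 36.7% (19.6% higher and 17.1% lower). The family median was 0.68 after siP300 (0.13 over all genes) and 0.54 after siComb (0.09), on the log2 scale. Library ranges were apart from siControl for 6 of 10 members in both, as for 48.3% and 51.6% of all genes. With library size alone in place of TMM, the share of called genes that were higher went from 55.8% to 77.0% after siP300 and from 53.5% to 70.4% after siComb, and the median of all genes moved up by 0.32 and 0.26. No member was called after siKat6a or siKat6b by edgeR, where 0% and 0.0209% of all genes were (0.0104% higher and 0.0104% lower after siKat6b). At an unadjusted p below 0.05, 0 members passed after siKat6a (410 genes overall) and 2 after siKat6b, Hdac1 and Hdac9 (2004 genes overall). DESeq2 and limma-voom called 0 members in both. Ranges were apart for 2 members after siKat6a (9.93% of all genes) and 1 after siKat6b (17%).

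**Figure D1:**
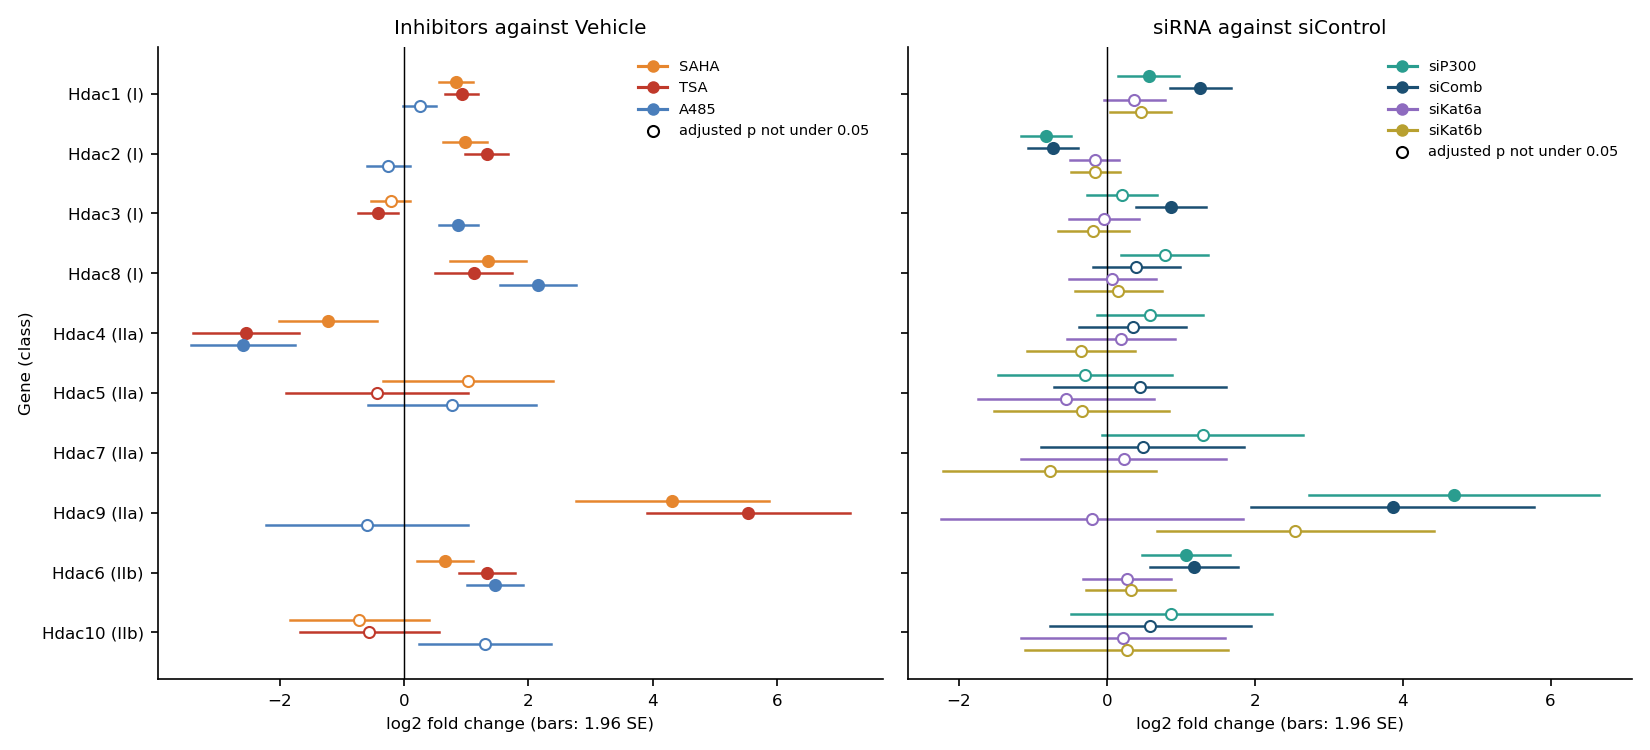
Log2 fold change of each member (rows, class in brackets) against Vehicle (left) or siControl (right), with bars of 1.96 SE; filled points passed an adjusted p of 0.05 in edgeR. Hdac9 reaches 5.54 with TSA and 4.70 after siP300, Hdac4 lies below 0 with all 3 inhibitors, and no siKat6a or siKat6b point is filled.

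Hdac1 was the most abundant member per length in all 9 groups. In the Vehicle libraries it took 261, 327 and 299 CPM, against 483, 543 and 514 with SAHA, 501, 544 and 566 with TSA and 331, 319 and 383 with A485. Every SAHA and TSA library stood above every Vehicle and A485 library, while A485 and Vehicle overlapped. Hdac1 rose by 0.83 ± 0.14 on the log2 scale with SAHA (edgeR adjusted p = 3.69e-04) and by 0.92 ± 0.14 with TSA (edgeR adjusted p = 5.61e-05), and stood at 0.25 ± 0.14 with A485 (edgeR adjusted p = 0.142). Injected with siControl, the pools had 158, 156 and 113 CPM, with siP300 242, 212 and 169.9, and with siComb 332, 288 and 407. All siP300 and siComb libraries lay above all siControl libraries. Hdac1 rose after siP300 (log2 0.57 ± 0.21, edgeR adjusted p = 0.0435) and after siComb (1.26 ± 0.21, edgeR adjusted p = 2.48e-04). The siP300 call was lost when any of siControl 1, 2 or 3 or siP300 1 or 2 was left out (adjusted p up to 0.184), with limma-voom (0.0606) and in a fit of just these groups (0.0556). The siKat6a libraries (186, 190.0 and 171 CPM) also lay above siControl and the siKat6b libraries (250.3, 146 and 189.8 CPM) overlapped it, without passing the test. Vehicle, at 296 ± 32.7 CPM, stood above siControl, at 142 ± 25.7; these groups differ in injection and in time under treatment and were not compared by a test.

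Hdac1 has a near-identical copy, the processed pseudogene Hdac1-ps, with which its reads could be exchanged. Hdac1-ps held between 1.81% and 5.60% as many counts as Hdac1 in single libraries. It rose with SAHA (log2 1.14 ± 0.34, edgeR adjusted p = 0.0168) and stood at 0.72 ± 0.34 with TSA (edgeR adjusted p = 0.0813).

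Hdac2, the closest paralog of Hdac1, moved with it under the deacetylase inhibitors and opposite to it after siP300 and siComb. It took 70.7, 64.4 and 62.3 CPM in Vehicle, 132, 120.1 and 127 with SAHA, 162, 184 and 127 with TSA and 65.1, 45.3 and 50.5 with A485. No SAHA or TSA library overlapped Vehicle or A485, and A485 overlapped Vehicle. The rise was 0.98 ± 0.18 (log2) with SAHA (edgeR adjusted p = 8.13e-04) and 1.33 ± 0.18 with TSA (edgeR adjusted p = 2.48e-05), and the value with A485 was -0.26 ± 0.18 (edgeR adjusted p = 0.248). In siControl Hdac2 took 91.6, 92.7 and 96.9 CPM, in siP300 59.6, 42.3 and 55.5 and in siComb 48.5, 54.5 and 66.9, so both treated groups lay wholly below the control. Hdac2 fell by 0.82 ± 0.17 after siP300 (edgeR adjusted p = 0.00162) and by 0.73 ± 0.17 after siComb (edgeR adjusted p = 0.00331), on the log2 scale. With library size alone in place of TMM it fell by 0.49 and 0.47. After siKat6a (80.3 to 85.6 CPM) it lay below siControl in every library without passing the test, and after siKat6b (76.2 to 97.8 CPM) it overlapped.

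Hdac3, the catalytic partner of Ncor1, did not follow Hdac1 and Hdac2. It took 57.7, 62.4 and 58.8 CPM in Vehicle, 91.7, 111 and 118 with A485, 49.9, 54.6 and 45.6 with SAHA and 40.9, 37.9 and 48.9 with TSA. All A485 libraries were above Vehicle and all SAHA and TSA libraries below it. Hdac3 rose with A485 (log2 0.87 ± 0.16, edgeR adjusted p = 5.28e-04). It fell with TSA (-0.42 ± 0.16, edgeR adjusted p = 0.0366), and the value with SAHA was -0.22 ± 0.16 (edgeR adjusted p = 0.320). The TSA call was lost under DESeq2 size factors (-0.28, adjusted p = 0.16), a scaling that moved the median of all genes by 0.14, in 5 other settings, and without Vehicle 1, 2 or 3 or TSA 1 or 2. After siComb Hdac3 took 91.4, 70.8 and 73.6 CPM against 49.6, 38.7 and 40.7 in siControl, with no overlap, and it rose (0.87 ± 0.24, edgeR adjusted p = 0.0102). The siP300 libraries were spread from 31.0 to 70.4 CPM, on both sides of siControl.

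Hdac8, an X-linked class I enzyme, was low in every group. Vehicle held 3.46, 3.00 and 3.62 CPM, SAHA 9.17, 6.26 and 9.76, TSA 4.90, 7.94 and 8.19, and A485 11.8, 16.6 and 15.7. All inhibitor libraries lay above Vehicle. Hdac8 rose with all 3 inhibitors, by 1.35 ± 0.31 with SAHA (edgeR adjusted p = 0.00438), 1.12 ± 0.32 with TSA (edgeR adjusted p = 0.00746) and 2.15 ± 0.31 with A485 (edgeR adjusted p = 7.61e-05), on the log2 scale. After siP300 it took 9.28, 11 and 11.6 CPM against 6.73, 6.45 and 5.54 in siControl, without overlap (log2 0.78 ± 0.30, edgeR adjusted p = 0.05003, which lies just above the threshold). It passed the threshold after siP300 in 7 other settings, among them DESeq2 (adjusted p = 0.0297) and library size alone (0.012). The siComb libraries (7.65 to 9.16 CPM) also lay above siControl without passing the test.

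**Figure D2:**
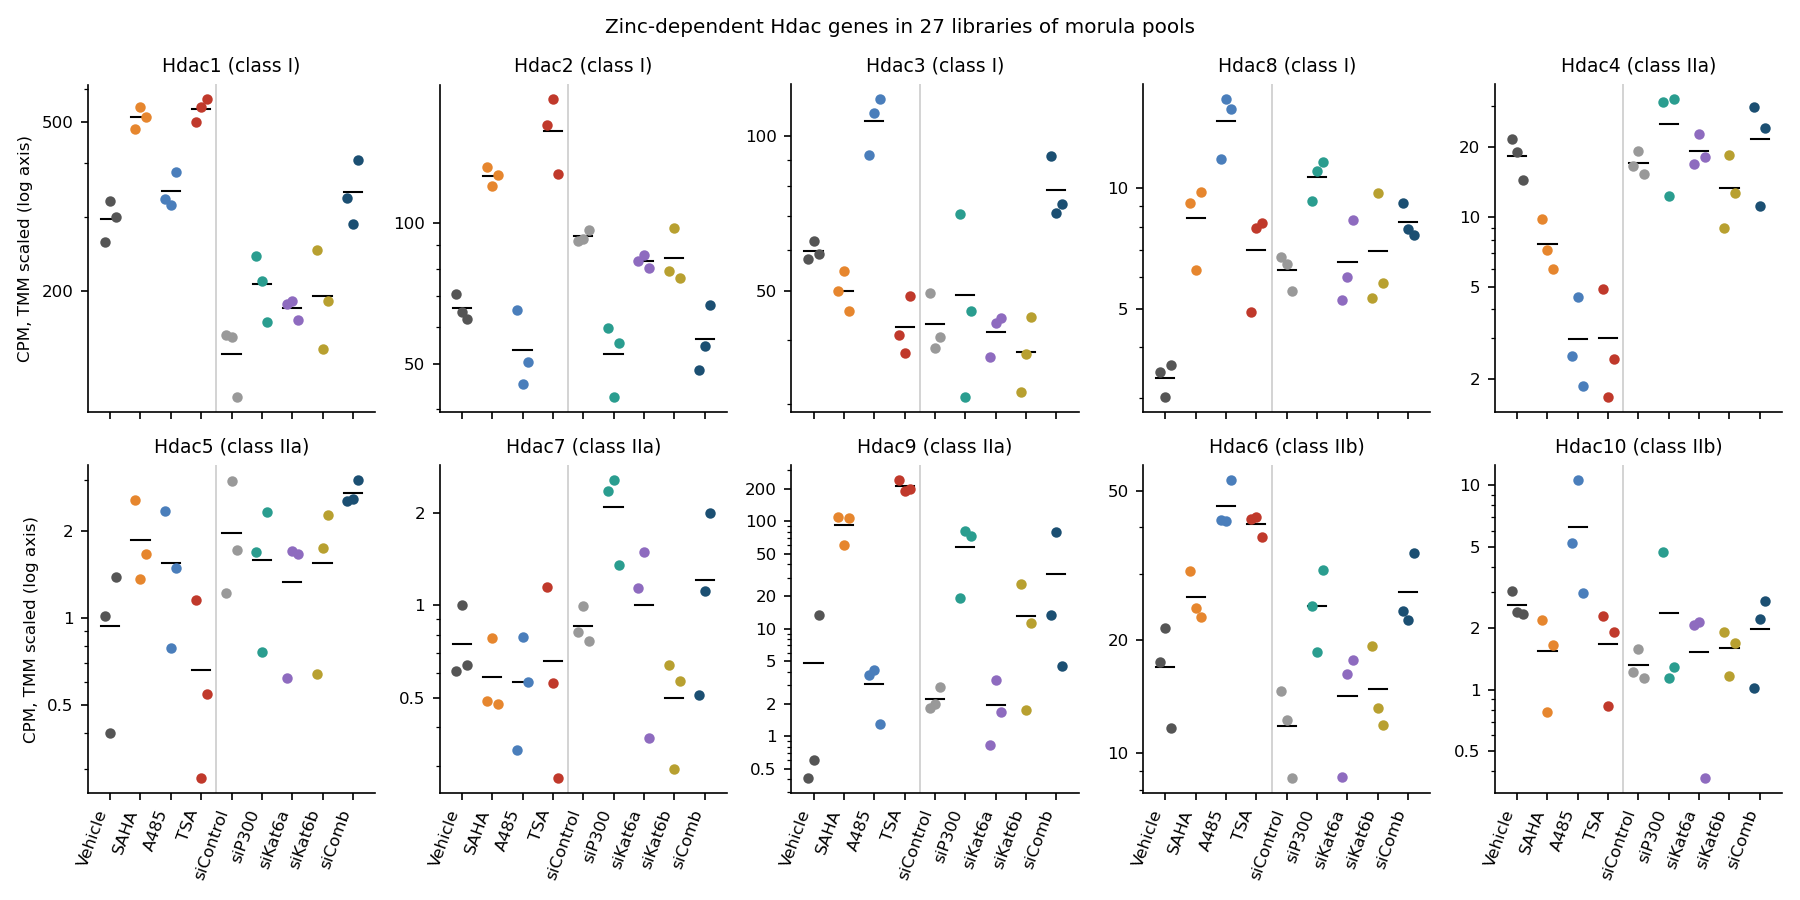
CPM of each member in the 27 libraries (points, log axis with its own range in each panel) by group, with black bars at group means and a grey line between the inhibitor and siRNA families. The Hdac9 panel spans 0.408 to 242 CPM, and Hdac5, Hdac7 and Hdac10 reach at most 10.6 CPM.

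Hdac9, a class IIa member whose product is known as a Mef2-binding repressor, had the widest range of group means in the family, 6.27 for means of log2(CPM + 1). Vehicle held 0.408, 0.600 and 13.4 CPM, SAHA 109, 60.3 and 108, TSA 242, 194 and 201, and A485 3.70, 4.13 and 1.31. Every SAHA and TSA library stood far above all others of the family, and TSA stood above SAHA in every library, at doses that differ. The Vehicle mean rests on 1 library, Vehicle 3, whose 126 counts stood against 4 and 6 in the others. Hdac9 rose with SAHA (log2 4.32 ± 0.80, edgeR adjusted p = 9.00e-04) and with TSA (5.54 ± 0.83, edgeR adjusted p = 6.37e-05). Without Vehicle 3 these values were 7.54 and 8.76. With A485 the value was -0.60 ± 0.83 (edgeR adjusted p = 0.582), and without Vehicle 3 it turned to 2.58 and passed the test (edgeR adjusted p = 0.00182). All A485 libraries were lower than Vehicle 3 and higher than the other Vehicle libraries. DESeq2 gave no adjusted p for Hdac9 in the inhibitor family, so these calls have no counterpart there.

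The siRNA libraries of Hdac9 were uneven within their groups. In siControl it took 1.84, 1.99 and 2.87 CPM, in siP300 19.4, 80.7 and 73.2, in siComb 13.3, 79.8 and 4.55, and in siKat6b 26.4, 1.75 and 11.4. All siP300 and siComb libraries lay above siControl, siKat6b 2 lay below it, and the siKat6a libraries (0.826, 3.32 and 1.66 CPM) overlapped it. Hdac9 rose after siP300 (log2 4.70 ± 1.00, edgeR adjusted p = 0.00195) and after siComb (3.87 ± 0.98, edgeR adjusted p = 0.00559). Leaving out siComb 2 took the siComb value to 1.99 and the call with it (adjusted p = 0.068). In siKat6b the value was 2.55 ± 0.96 (edgeR adjusted p = 0.336), with a call under no filter on low counts (2.61e-13).

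MERVL-int is the internal region of an endogenous retrovirus active at the 2-cell stage, and libraries high in it were mostly high in Hdac9. It stood at 4887, 2244 and 5102 CPM with SAHA and 10606, 9422 and 10418 with TSA, where the library lowest in MERVL-int was in each case the lowest in Hdac9. Vehicle held 13.6, 15.7 and 273 CPM of MERVL-int, the last in Vehicle 3. In siP300, however, MERVL-int was 126, 795 and 122 CPM while Hdac9 was 19.4, 80.7 and 73.2, so that siP300 3 had nearly as much Hdac9 as siP300 2 with far less MERVL-int. Without the 4 siRNA libraries high in MERVL-int (siP300 2, siKat6b 1, siKat6b 3 and siComb 2), the log2 value of Hdac9 was 4.36 after siP300 and 1.99 after siComb. Both groups were then short of 1 library. The siKat6b value then turned to -0.35, with 1 library left in that group and its spread taken from the other groups. With siComb 2 alone left out, the siComb value was also 1.99 and was not called (edgeR adjusted p = 0.068). Whether the retroviral level bears on that of Hdac9 was not tested.

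**Figure D3:**
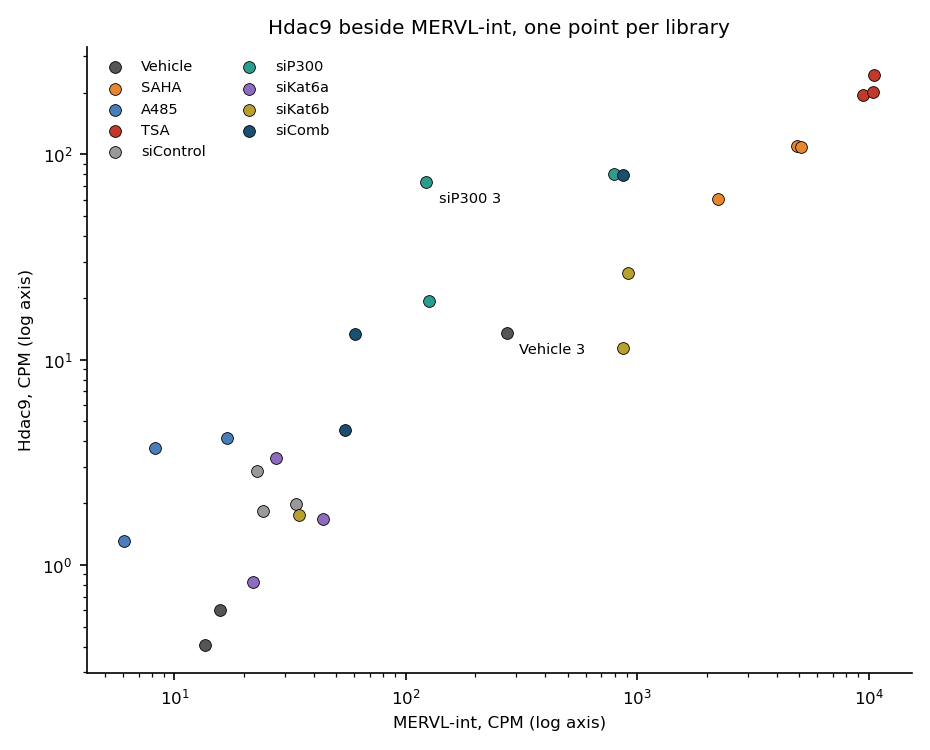
Hdac9 against MERVL-int in the 27 libraries, both in CPM on log axes, coloured by group, as a description with no test. TSA and SAHA libraries lie at the upper right, Vehicle 3 stands apart from the other Vehicle libraries, and siP300 3 has 73.2 CPM of Hdac9 at 122 CPM of MERVL-int.

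Hdac4, a class IIa corepressor of Mef2 factors, was the member that fell with all 3 inhibitors. Vehicle held 21.6, 19.0 and 14.5 CPM, SAHA 9.78, 7.24 and 5.95, TSA 4.90, 1.67 and 2.46, and A485 2.52, 4.53 and 1.87. All inhibitor libraries lay below Vehicle, and TSA and A485 overlapped. Hdac4 fell by 1.23 ± 0.40 with SAHA (edgeR adjusted p = 0.0292), by 2.54 ± 0.43 with TSA (edgeR adjusted p = 1.91e-04) and by 2.59 ± 0.43 with A485 (edgeR adjusted p = 2.07e-04), on the log2 scale. The SAHA call was lost without Vehicle 1, Vehicle 2, SAHA 2 or SAHA 3 (adjusted p from 0.0731 to 0.113). After siP300 it took 31.4, 12.3 and 32.1 CPM and after siComb 29.9, 11.1 and 24.2, against 16.5, 19.3 and 15.3 in siControl, and in both groups the second library lay below the control and the others above. Those second libraries are among the 4 high in MERVL-int. Over all libraries the log2 values of Hdac4 were 0.58 ± 0.37 after siP300 (edgeR adjusted p = 0.227) and 0.35 ± 0.37 after siComb (edgeR adjusted p = 0.482). Without the 4 libraries they were 0.89 and 0.66. The libraries left out include the low one of each group, so a higher value was fixed by that choice and no conclusion is drawn from it. Of the merged exons of Hdac4, 22.4% lie under an antisense gene model, Gm26720, so unstranded counts could hold reads of both.

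Hdac5 and Hdac7, the other class IIa members, were near the lower end of what these libraries can measure. Hdac5 held 2 to 36 counts and Hdac7 2 to 28 counts per library. Group means of Hdac5 ran from 0.659 CPM with TSA to 2.72 CPM in siComb, and neighbouring groups in that order all overlapped. Means of Hdac7 ran from 0.50 CPM in siKat6b to 2.09 CPM in siP300, again with every pair of neighbours overlapping. The siP300 libraries of Hdac7 (2.36, 2.56 and 1.36 CPM) lay above siControl (0.816, 0.993 and 0.764) without passing the test (log2 1.30 ± 0.69, edgeR adjusted p = 0.155). Neither gene was called in any comparison.

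Hdac6, the class IIb tubulin deacetylase, rose in 5 of the 7 comparisons with a control. Vehicle held 17.5, 21.6 and 11.7 CPM, SAHA 30.6, 24.4 and 23.1, TSA 42.1, 42.6 and 37.7, and A485 41.9, 41.5 and 53.5. All inhibitor libraries lay above Vehicle, and A485 and TSA were not apart from each other. The rise was 0.65 ± 0.23 (log2) with SAHA (edgeR adjusted p = 0.0393), 1.33 ± 0.23 with TSA (edgeR adjusted p = 2.18e-04) and 1.46 ± 0.23 with A485 (edgeR adjusted p = 1.47e-04). The SAHA call was lost without Vehicle 1 or 3 or any SAHA library (adjusted p up to 0.161) and in fits of just these groups or of all 27 libraries. After siP300 Hdac6 took 24.6, 18.6 and 30.7 CPM and after siComb 23.9, 22.6 and 34.3, all above the 14.7, 12.3 and 8.60 of siControl. It rose by 1.07 ± 0.30 after siP300 (edgeR adjusted p = 0.0125) and by 1.18 ± 0.30 after siComb (edgeR adjusted p = 0.00639). The siP300 call was lost without siControl 3 (0.068) or siP300 3 (0.055).

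Hdac10, which acts on polyamines, was low throughout, with 4 to 108 counts per library. It took 3.06, 2.40 and 2.35 CPM in Vehicle and 5.22, 10.6 and 2.99 with A485, where A485 3 lay within the Vehicle range. The A485 value was 1.30 ± 0.54 (log2, edgeR adjusted p = 0.0639), and the gene was called with DESeq2 (0.0457), in the fit of just these groups (0.0462), with halved counts (0.0457) and without A485 3 (0.0265). SAHA (0.782 to 2.20 CPM) and TSA (0.836 to 2.30 CPM) lay below Vehicle without passing the test. In the siRNA family its ranges overlapped siControl in every group.

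TSA and A485, which block enzymes of opposite action, were also compared with each other, with the gene filter and the spread taken from all 4 groups of the inhibitor family. Hdac1, Hdac2 and Hdac9 were higher with TSA and Hdac3, Hdac8 and Hdac10 lower, 6 of 9 members, against 63.5% of all genes called (36.1% higher and 27.4% lower). Ranges were apart for the same 6 members, as for 66.1% of all genes. The median of the family was -0.13 on the log2 scale and that of all genes 0.27. The differences were 0.67 ± 0.14 for Hdac1 (edgeR adjusted p = 6.47e-04), 1.59 ± 0.18 for Hdac2 (edgeR adjusted p = 3.96e-06) and 6.14 ± 0.86 for Hdac9 (edgeR adjusted p = 2.73e-05). They were -1.30 ± 0.16 for Hdac3 (edgeR adjusted p = 1.06e-05), -1.03 ± 0.30 for Hdac8 (edgeR adjusted p = 0.00812) and -1.86 ± 0.57 for Hdac10 (edgeR adjusted p = 0.0108). The Hdac10 call was lost without A485 2 (0.0573) or TSA 2 (0.0522). For Hdac4 the interval of 1.96 SE around the difference ran from -0.81 to 0.92 and for Hdac6 from -0.57 to 0.31. The sign of the difference was thus not resolved for either gene.

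Divided by merged exon length, the levels of the members can be set in order within a group. In Vehicle, Hdac1 led with 85.8 ± 9.50 CPM per kilobase. Hdac3 (14.7 ± 0.61) and Hdac2 (14.7 ± 0.98) followed without being apart, then Hdac6 (2.91 ± 0.85), Hdac4 (1.16 ± 0.23) and Hdac10 (0.770 ± 0.117). From Hdac10 down through Hdac8, Hdac9, Hdac7 and Hdac5, neighbours overlapped. With TSA the order at the top was Hdac1 (156 ± 9.51), Hdac2 (35.3 ± 6.42), Hdac9 (14.5 ± 1.79) and Hdac3 (10.5 ± 1.40), each apart from the next. Hdac9, which had the eighth mean level in Vehicle, had the third with TSA. Its place in Vehicle rests on Vehicle 3, where it held 0.759% of the family total. In Vehicle 1 and Vehicle 2 it was the lowest member, with 0.0248% and 0.0312%. In siControl, Hdac1 (41.3 ± 7.46) and Hdac2 (20.9 ± 0.62) stood closer than in any other group, ahead of Hdac3 (10.6 ± 1.43).

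Class I genes made up 95.5 ± 0.473% of the length-scaled family total in Vehicle, 94.1 ± 1.40% with SAHA, 90.1 ± 1.35% with TSA and 93.2 ± 0.693% with A485. With TSA and A485 the share was below Vehicle in every library, while SAHA overlapped. It was 94.9 ± 0.331% in siControl, 88.5 ± 3.22% after siP300 and 93.3 ± 1.90% after siComb, the latter groups below siControl in every library. For siComb the gap rests on siComb 2 (91.2%): siComb 1 and the lowest siControl library were both at 94.6%, and without siComb 2 the difference went from -1.54 to -0.45 percentage points. Two-sided exact permutation tests gave p = 0.1 for TSA, A485, siP300 and siComb, the smallest that 3 libraries against 3 allow, and 0.3 for SAHA. Class IIa took 1.42 ± 0.316% in Vehicle and 6.60 ± 1.10% with TSA, of which Hdac9 held 6.44 ± 0.999%. With A485 class IIa was at 0.439 ± 0.140% and class IIb at 6.41 ± 0.605%, against 3.04 ± 0.689% for class IIb in Vehicle. The size of these shares depends on the division by length: the difference between TSA and Vehicle in the class I share was -5.48 percentage points with it and -16.3 without it.

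The ratio of Hdac1 to Hdac2 counts needs no scaling between libraries. On the log2 scale it was 1.89, 2.34 and 2.26 in Vehicle, 1.87, 2.18 and 2.02 with SAHA, 1.63, 1.56 and 2.15 with TSA and 2.34, 2.82 and 2.92 with A485. All A485 libraries were above the highest Vehicle library. In siControl it was 0.79, 0.75 and 0.22, against 2.02, 2.32 and 1.61 after siP300, 2.77, 2.40 and 2.60 after siComb, 1.17, 1.15 and 1.09 after siKat6a and 1.66, 0.58 and 1.32 after siKat6b. The first 3 treated groups lay above siControl in every library. Exact permutation tests (two-sided) gave p = 0.1, the smallest possible, for A485, siP300, siComb and siKat6a, 0.4 for SAHA, 0.2 for TSA and 0.3 for siKat6b. Over the 14 exact permutation tests of ratios and shares, the smallest Benjamini-Hochberg adjusted value was 0.175.

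**Figure D4:**
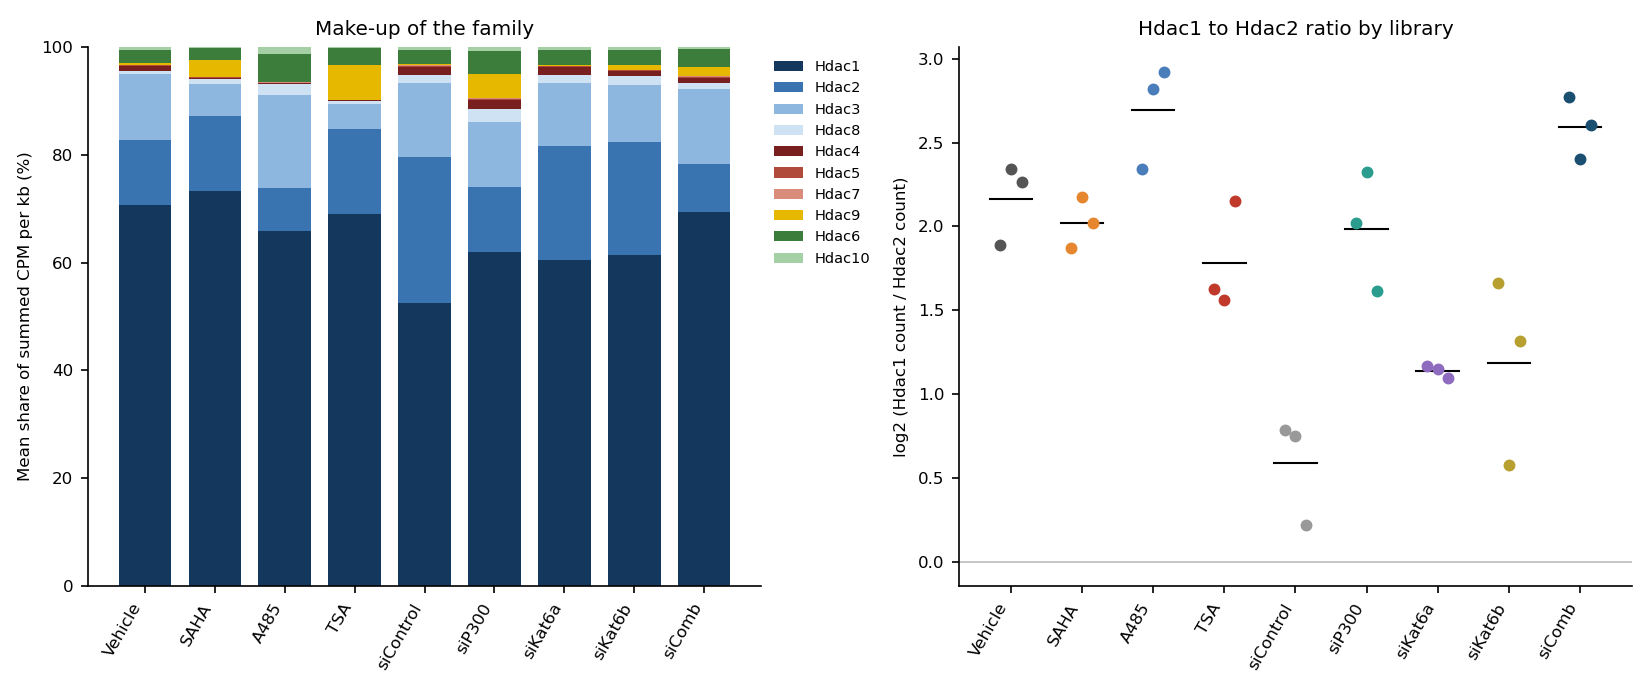
Left, mean share of each member in the summed CPM per kilobase of the 10 genes (%), by group; right, log2 ratio of Hdac1 to Hdac2 counts per library (points) with group means (bars). The Hdac9 share reaches 6.44% with TSA. The siControl group has the lowest mean ratio, with libraries at 0.22 to 0.79, a range in which siKat6b 2 (0.58) also lies.

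Summed markers of other cells moved with some of these groups, with most counts of each list in few genes. Summed blood and immune markers (8 listed, 3 to 6 with counts per library) reached 20.7 to 22.4 CPM in siControl, 80.3 to 164 in siP300 and 91.5 to 136 in siComb, and 20.0 to 25.9 in Vehicle, 41.8 to 67.4 in TSA and 31.8 to 65.5 in A485. Of these, Hbb-bs was at 0 in all 27 libraries and Ptprc reached 0.418 CPM at most. Over the 27 libraries Cd68 held 6180 counts, Hba-a1 5178 and Laptm5 2901, while Lyz2 held 154, Fcer1g 76 and Tyrobp 12. Cumulus and granulosa markers (8 listed) summed to 0.955 to 1.59 CPM in siControl, 7.51 to 14.3 in siP300 and 6.56 to 10.3 in siComb. Most counts of this list were of Tnfaip6 (580 over the 27 libraries), followed by Foxl2 (218) and Cyp19a1 (128). Oviduct and stroma markers (6 listed, 1 to 4 with counts per library) summed to 2.14 to 2.68 CPM in siControl, 3.89 to 7.36 in siP300 and 4.82 to 9.16 in siComb. Ovgp1 (374 counts) and Col1a1 (359) made up most of that list, with 96 for Pax8. Under the inhibitors both lists lay above Vehicle in every TSA library, with 2.51 to 3.55 CPM against 0.853 to 2.00 for cumulus and granulosa markers and 2.74 to 5.46 against 0.200 to 0.640 for oviduct and stroma markers. Of the counts of the 10 embryo markers, Dppa3, a maternal factor of early embryos, held 88.1%. Dppa3 ran from 6436 to 8078 CPM in Vehicle and from 80.6 to 189.8 in A485, while SAHA (9142 to 13805) and TSA (8743 to 15108) lay above Vehicle in every library. It ran from 8962 to 13973 CPM in siControl, 3429 to 5445 in siP300 and 1818 to 2816 in siComb. The other 9 embryo markers summed to 1355 to 1445 CPM in Vehicle, 703 to 808 in SAHA, 287 to 368 in TSA and 146 to 188 in A485. In the siRNA family these 9 summed to 1487 to 1679 CPM in siControl, 377 to 856 in siP300 and 509.5 to 818 in siComb, so in every group with a changed Hdac gene they lay below the control in every library, as they did in siKat6b (1265 to 1393), where no member was called. The part of these shifts, and of the mitochondrial shares above, in the Hdac results was not tested.

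By the correlation of 9 group means of log2(CPM + 1) among 10184 genes, the genes most like Hdac9 were Chrm3 (Pearson r = 0.991), Lrmda (0.988) and Ctnna2 (0.987). Those most like Hdac1 were Ddx42 (0.977), Eno1 (0.965) and Slc37a3 (0.957), and those most like Hdac6 were Papss1 (0.977), Tcf19 (0.977) and Tango2 (0.969). These are descriptions over 9 points that share libraries within each group, chosen as the highest of many genes.

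Other deacetylases and the partners of the family were counted from lists. Of the 7 sirtuins, the NAD-dependent class III enzymes, 2 rose and 1 fell with SAHA, 3 and 2 with TSA, and 3 and 1 with A485, where 34.2%, 58.2% and 45.5% of all genes tested were called. Sirt4, a mitochondrial sirtuin, went from 7.75 ± 1.46 CPM in Vehicle to 23.3 ± 6.27 with SAHA and 39.9 ± 11.1 with TSA (edgeR adjusted p = 4.75e-04 and 6.03e-06). Sirt1, a nuclear sirtuin, rose with TSA from 28.8 ± 1.67 to 64.1 ± 12.1 CPM (edgeR adjusted p = 6.85e-04). Sirt2, a cytoplasmic tubulin deacetylase like Hdac6, went from 16.7 ± 2.13 to 23.9 ± 2.83 CPM with SAHA (edgeR adjusted p = 0.0473) and 120.3 ± 24.5 with A485 (1.65e-07). Sirt6, which binds chromatin, fell from 15.4 ± 3.37 to 4.50 ± 1.13 CPM with A485 (edgeR adjusted p = 9.12e-04). TSA against A485 gave 30.9 ± 5.41 CPM with TSA for Sirt2 and 17.1 ± 2.42 with A485 for Sirt4, and in that comparison Sirt2 was lower (edgeR adjusted p = 2.16e-06) and Sirt4 higher (8.97e-04) with TSA. After siP300, 2 sirtuins rose and 1 fell, and after siComb 4 rose and 1 fell (35.4% and 36.7% of all genes called), among them Sirt2 after siComb (7.95 ± 2.80 to 28.6 ± 5.65 CPM, edgeR adjusted p = 7.67e-04). Sirt7, a nucleolar sirtuin, went from 13.0 ± 3.19 CPM in siControl to 29.3 ± 3.80 after siP300 and 33.9 ± 8.21 after siComb (edgeR adjusted p = 0.00942 and 0.00334). Sirt1 rose after siP300 from 39.9 ± 2.86 to 59.97 ± 8.21 CPM (edgeR adjusted p = 0.0256). The median log2 fold change of the sirtuins was -0.05 with SAHA, 0.15 with TSA, 0.24 with A485, 0.61 after siP300 and 0.82 after siComb, where that of all genes tested was 0.06, 0.08, -0.06, 0.13 and 0.09. Hdac11, the class IV enzyme, held 0 to 20 counts per library, was not tested in the inhibitor family and was not called in the siRNA family.

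Of 44 tested subunits of class I complexes, 7 rose and 11 fell with SAHA, 11 and 16 with TSA, 12 and 8 with A485, 9 and 5 after siP300 and 9 and 4 after siComb. In the same order, 34.2%, 58.2%, 45.5%, 35.4% and 36.7% of all genes were called. The medians over the list were -0.04, -0.38, 0.04, -0.06 and 0.02 on the log2 scale, against 0.06, 0.08, -0.06, 0.13 and 0.09 over all genes. Mta3, a NuRD subunit, fell from 211 ± 13.1 CPM in Vehicle to 68.2 ± 8.92 with SAHA, 29.3 ± 3.46 with TSA and 87.8 ± 8.28 with A485 (edgeR adjusted p = 5.24e-06, 2.23e-08 and 2.08e-05). Arid4a, a Sin3 complex subunit, rose from 44.8 ± 7.03 to 383 ± 58.1 CPM with TSA (edgeR adjusted p = 2.65e-07) and was at 13.5 ± 3.03 with A485, a difference between TSA and A485 with an edgeR adjusted p of 1.01e-08. In the same comparison Tbl1x, the paralog of Tbl1xr1, was lower with TSA (13.4 ± 2.85 CPM) than with A485 (90.4 ± 4.34, edgeR adjusted p = 5.00e-07). Tbl1xr1, of the complex of Hdac3 and Ncor1, fell from 75.8 ± 5.85 to 26.8 ± 2.00 with SAHA and 16.7 ± 2.02 with A485 (edgeR adjusted p = 4.76e-05 and 9.16e-07). Arid4b, the paralog of Arid4a, rose from 50.3 ± 3.76 in siControl to 117 ± 20.8 after siP300 and 126 ± 11.1 after siComb (edgeR adjusted p = 5.10e-05 and 1.71e-05). Phf21a, a subunit of the CoREST complex, rose from 14.2 ± 1.96 to 34.4 ± 7.06 CPM after siP300 (edgeR adjusted p = 0.00104), and Mier1, an Hdac1 and Hdac2 scaffold, from 28.9 ± 3.02 to 65.6 ± 6.43 after siComb (8.55e-05).

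Of 21 tested partners and kinases of class IIa enzymes, 4 rose and 5 fell with SAHA, 4 and 10 with TSA, 6 and 4 with A485, 4 and 6 after siP300 and 2 and 1 after siComb, with medians of -0.21, -0.28, 0.22, 0.05 and 0.0021 on the log2 scale. The shares called and medians over all genes are those just given, and the 3 of 21 after siComb stand against 36.7%. Camk4, a kinase that phosphorylates class IIa deacetylases, went from 1.45 ± 0.753 CPM in Vehicle to 22.7 ± 4.83 with SAHA (edgeR adjusted p = 1.41e-05), and was higher with TSA (53.2 ± 13.3) than with A485 (0.736 ± 0.505, edgeR adjusted p = 1.33e-07). Camk1, of the same kinase family, fell from 72.4 ± 5.86 to 1.77 ± 0.887 with TSA (edgeR adjusted p = 1.99e-08) and stood at 59.7 ± 3.85 with A485, above TSA (1.47e-08). Sfn, the 14-3-3 sigma protein, fell from 1279 ± 240.3 to 163 ± 19.1 with TSA and 66.3 ± 5.89 with A485 (edgeR adjusted p = 1.99e-08 and 1.17e-09). Ywhaq, another 14-3-3 protein, fell from 780.1 ± 52.9 to 342 ± 89.3 with A485 (edgeR adjusted p = 6.42e-05). Prkd1, a kinase that drives nuclear export of class IIa enzymes, rose from 1.05 ± 0.08 CPM in siControl to 11.9 ± 4.66 after siP300 and 13.3 ± 7.55 after siComb (edgeR adjusted p = 2.28e-04 and 1.30e-04), and with SAHA it rose from 0.616 ± 0.537 in Vehicle to 13.5 ± 3.25 (2.44e-05). Ywhae, also a 14-3-3 protein, fell from 1027 ± 37.7 CPM in siControl to 673 ± 73.0 after siP300 and 702 ± 18.6 after siComb (edgeR adjusted p = 0.00249 and 0.00362). No gene of these 3 lists was called after siKat6a or siKat6b by edgeR.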

How the data were processed

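RNA of pooled mouse morulae was measured in 27 libraries. The authors deposited raw counts per gene, as whole numbers, in a series-wide table that holds the same values as the sample files in 27 of 27 libraries. Per the submitters' processing notes, STAR 2.7.11a, featureCounts, Subread 2.0.6, MultiQC and Scanpy 1.8.2 were used, with the builds mm10 and GRCh38 named without roles. Annotation release, strand and read-pair settings were not given in the sources used here, while 84.5% of nonzero counts were even. Totals ran from 7633990 to 11991314, and their number limits the precision of low genes. Replicates of a group differed by 4.18 to 24.6 chi-square per degree of freedom, so none was counted as a duplicate.

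Titles gave the groups. The gene-wise test was edgeR 4.0.16 (R 4.3.3, quasi-likelihood, TMM, filterByExpr with a minimum count of 10), in 1 fit per family (18299 genes in the inhibitor family, 19182 in the siRNA family), with Benjamini-Hochberg adjustment within each comparison and a threshold of 0.05. Lengths are merged exons of GENCODE vM21 on GRCm38. Shares and ratios were compared by exact permutation tests in Python 3.11.15 with SciPy 1.17.1, pandas 2.3.3, numpy 2.4.6 and matplotlib 3.10.9.

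Alternatives were DESeq2 size factors, library size alone, DESeq2 1.42.0, limma-voom (limma 3.58.1) with sample weights, no filter, a filter of 5 CPM in 3 libraries, a replicate block, other sets of libraries in the fit, the sample files, halved counts, leaving out each library, and, for shares, other lengths. DESeq2 gave no adjusted p for Hdac9 in the inhibitor family. The test was checked on simulated counts of just the groups compared, where the report's fits took their spread from a whole family. Changes were planted in few genes, all with at least 10 CPM in the control. In the data 34.2% (SAHA) and 35.4% (siP300) of genes were called, so the cut-off of the adjustment was stricter in the simulation. The recovery is therefore not the sensitivity of the reported comparisons. Of 67 genes given a 2-fold change the test found 36 in SAHA against Vehicle (15789 genes) and 18 in siP300 against siControl (17156 genes). Of 66 given a 4-fold change it found 64 and 63. Changes of 1.5-fold were found for 6 and 0 of 67. False calls numbered 4 of 110 and 6 of 87.

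The members, lists and tests were chosen with earlier results of these data known. All 10 members and Hdac11 are named, along with up to 2 genes per list and comparison, by adjusted p, with a mean of at least 10 CPM in a group. The genes most like a member were taken for the member of each class with the widest range.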

Additional observations from a re-analysis of the deposited data

How the results depend on the processing

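Of 1300 repeats of a member's fold change under other settings, 1220 kept their direction and their side of the threshold, 34 lost a call, 15 gained one and 31 turned in sign. Repeats without an adjusted p, as for Hdac9 with DESeq2 in the inhibitor family, are left out of this tally. The repeats include the sample files, which hold the same values, so that part of the agreement was fixed in advance. No member called in the report turned. The number of members called stayed within 1.5 times except without siControl 3 after siP300 (2 against 4) and with no filter after siKat6b (1 against 0). Leaving out each library moved the number after siP300 between 2 and 4. Over all genes, siKat6a had 2 calls with DESeq2 and 15 with no filter (0 in the report). The 4 of siKat6b became 2 with DESeq2 size factors, 237 with DESeq2, 10 with limma-voom, 757 with no filter, 60 with just these groups, 29 with all 27 libraries and 2 with halved counts, and 1 to 163 without single libraries.

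The replicate number did not pair the samples: deviations of same-numbered libraries correlated at -0.19 to 0.21, and in no comparison did all 3 pairs pass 0.1 or every library correlate best with its own number. A replicate block changed no member's call, and siKat6b then had 2 calls over all genes.

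Without division by length, the class I share differed from its control by -6.22 (SAHA), -16.3 (TSA), -0.884 (A485), -15.5 (siP300), -1.08 (siKat6b) and -4.45 (siComb) percentage points. With the longest transcript as length it was -1.39 for A485 and 0.0883 for siKat6a, against -0.06 for siKat6a in the report, which without single libraries ranged from -0.64 to 0.36, turning without siKat6a 2 (0.36), siKat6a 3 (0.0953) or siControl 3 (0.105).

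The sign turned in these uncalled results, on the log2 scale. Hdac9 with A485 was 0.72 by limma-voom and -1.16 to 2.58 without single libraries, passing the test without Vehicle 3. Hdac4 in TSA against A485 was -0.093 with library size alone, -0.011 with no filter and -0.49 to 0.39 without single libraries. After siP300, Hdac5 was 0.061 with library size alone and 0.019 without the 4 libraries high in MERVL-int, and after siKat6b without these 4 Hdac2 was 0.063, Hdac4 0.12, Hdac9 -0.35 and Hdac10 -0.17. Hdac10 after siKat6a was -0.12 by limma-voom. Without single libraries the ranges were -0.17 to 0.46 (Hdac3), -0.64 to 0.12 (Hdac5) and -0.12 to 1.2 (Hdac10) after siP300, -0.11 to 0.072 (Hdac3), -0.13 to 0.21 (Hdac8), -0.19 to 0.63 (Hdac7), -0.82 to 0.16 (Hdac9) and -0.12 to 0.69 (Hdac10) after siKat6a, -0.17 to 0.32 (Hdac8) and -0.72 to 0.085 (Hdac5) after siKat6b, and -0.084 to 0.85 (Hdac7) after siComb. The cause of these changes was not tested. At this depth Hdac5, Hdac7, Hdac10 and Hdac11 rest on few counts. Changes of 1.5-fold were mostly missed in simulated data. Only genes of at least 10 CPM in the control were changed there, so genes as low as these were not covered.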
